A study of Oryza sativa with 6 samples.

Results

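HSP82, Hsp90 and HSP81-3 are HSP90 family chaperone genes of rice, each followed here through 1 probe set of the Affymetrix rice genome array. They were chosen by probe set identifier, one each for HSP82 (gene LOC4345951), Hsp90 (LOC4347402) and HSP81-3 (LOC4347405). These are 3 of the 17905 genes that the annotation pairs with a probe set of their own, in a table of 57258 non-control probe sets. RNA came from whole Epi-df and wild type seedlings of the japonica type, 3 weeks old and raised in artificial soil, with 3 biological replicates of Epi-df and 3 of wild type and 1 array each. The Epi-df line, a dwarf, is known for an epigenetic allele of FIE1, which belongs to the Polycomb group. The labels name no cultivar, no treatment and no number of plants per sample. The p-values below rest on differences between these samples, and those of limma use a spread moderated over all tested probe sets.

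HSP90 proteins are ATP-driven chaperones that work as dimers. They receive partly folded client proteins from HSP70 with the help of co-chaperones and hold them in a form that can be activated. In plants their clients include immune receptors, which they handle together with SGT1 and RAR1. HSP90 also holds heat shock factors in check, and these factors in turn switch on chaperone genes when proteins misfold. In fruit flies and Arabidopsis, loss of HSP90 function is known to expose hidden genetic and epigenetic variation.

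The gene table (RefSeq, assembly ASM3414082v1) also lists HSP82 as HSP81-1 and Hsp90 as HSP81-2. Hsp90 and HSP81-3 lie on the same chromosome with 2 annotated genes between them, and HSP82 lies on another chromosome. A further gene, LOC9267802, follows HSP81-3 with 5 annotated genes between them and shares 2 probe sets with Hsp90 and HSP81-3. The suffix of the HSP81-3 probe set, _s_at, marks probes that match more than one transcript in the array's design. Signal from near-identical relatives can therefore not be told apart from that of HSP81-3 itself.

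The arrays were alike in level, with median intensities between 108.1 and 114.5. The 3' to 5' signal ratio of the actin control was uneven, at 13.8, 7.72 and 9.20 in Epi-df. In wild type it was 10.7, 9.83 and 9.90. For the GAPDH control it was 2.11, 1.63 and 1.68 in Epi-df and 2.33, 2.04 and 1.96 in wild type. The part of these ratios in the values below was not tested. Of the 7 probe sets of the seedling shoot markers rbcS, LHCP and CAB2R, 6 were bright on every array and a further rbcS one was dim. Their summed intensity was 70979 to 82233 in Epi-df and 64068 to 65661 in wild type, without overlap. The groups were separate, with Epi-df higher, for both CAB2R probe sets (folds of 1.21 and 1.56) and for LHCP (1.49). Of all tested probe sets 9.82% were separate in that direction. The limma adjusted p was 0.0749 and 0.0308 for CAB2R and 0.0873 for LHCP. The groups overlapped for all 4 rbcS probe sets (folds of 0.988 to 1.09). The 0.988 belongs to the brightest rbcS probe set. It read 23271 to 24975, near the highest intensity of each array (23594 to 24975), where a difference may not show. The summed root markers, Lsi1 and Lsi2, did not overlap either, at 499.5 to 688 in Epi-df and 392.2 to 467 in wild type. Lsi1 made up most of that sum (fold of 1.35, limma adjusted p = 0.184), while Lsi2 was dim. Seed and anther markers summed to 372 to 811 and 97.9 to 123 in Epi-df, against 347 to 495 and 115 to 124 in wild type, and overlapped. The part of the shoot and root marker levels in the values below was not tested. All 27 probe sets of the hybridisation controls bioB, bioC, bioD and cre, which are not seedling RNA, were highest in Epi-df replicate 3. Their geometric mean was 1663, 1777 and 2021 in the Epi-df arrays and 1668, 1799.6 and 1816 in the wild type arrays.

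Whether HSP90 transcripts differ between the lines was asked by setting the Epi-df arrays against those of wild type. HSP82, Hsp90 and HSP81-3 each had a slightly higher mean in Epi-df, with fitted folds of 1.04 to 1.09, and none of them passed the test. Of the 3 members 0 were called, where a call needs a 2-fold change and an adjusted p below 0.05 (limma, two-sided, Benjamini-Hochberg over 34355 probe sets). Over all tested probe sets 0.614% were called. At an unadjusted p under 0.05, 0 of the 3 members passed, against 14.4% of all tested probe sets. In RNA from whole seedlings, fewer cells of a type and less RNA per cell cannot be told apart.

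HSP82, which shares its name with a yeast HSP90 gene, had intensities of 3329, 3407 and 4041 in the Epi-df arrays and 3253, 3140.05 and 3506 in the wild type arrays. Epi-df replicates 1 and 2 lay inside the wild type range, and Epi-df replicate 3 lay above every other array. The means were 3592 ± 391 in Epi-df and 3299.7 ± 187 in wild type (SD, n = 3 each). The log2 change was 0.12 ± 0.09 (SE, limma adjusted p = 0.671), a 1.09-fold difference with a 95% interval of 0.933 to 1.26.

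Hsp90 read 7069.5, 6889.7 and 7849.8 in Epi-df, against 6410.4, 6658 and 6877 in wild type. Every Epi-df array was above every wild type array, although the lowest Epi-df value exceeded the highest wild type value by very little. Groups that do not overlap, with Epi-df higher, were found for 9.82% of all tested probe sets. Mean intensity was 7269.7 ± 510.4 in Epi-df and 6648 ± 233 in wild type (SD, n = 3 each). The log2 change of 0.13 ± 0.07 did not pass (limma adjusted p = 0.511), and the interval of the fold was 0.972 to 1.23.

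HSP81-3 stood at 9980.4, 9604 and 10651 in Epi-df and at 9277, 9367 and 10349 in wild type. Here the groups overlapped, since wild type replicate 3 lay above Epi-df replicates 1 and 2. Means were 10078 ± 530.4 and 9664 ± 595 in Epi-df and wild type (SD, n = 3 each). Its log2 change was 0.06 ± 0.07 (limma adjusted p = 0.798), a fold of 1.04 with an interval of 0.930 to 1.17.

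Exact permutation tests of single probe sets (two-sided) gave p = 0.4 for HSP82, 0.1 for Hsp90 and 0.5 for HSP81-3, and 0.1 is the smallest value that 3 against 3 arrays allow. The 95% intervals of all 3 members end under 2-fold, and the highest upper bound was the 1.26 of HSP82. An absolute log2 change at least as large as that of HSP82, Hsp90 and HSP81-3 was seen in 41.6%, 38.8% and 65.4% of all tested probe sets. The median log2 change over all tested probe sets was 0.01, and 53.9% of them were higher in Epi-df.

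**Figure D1:**
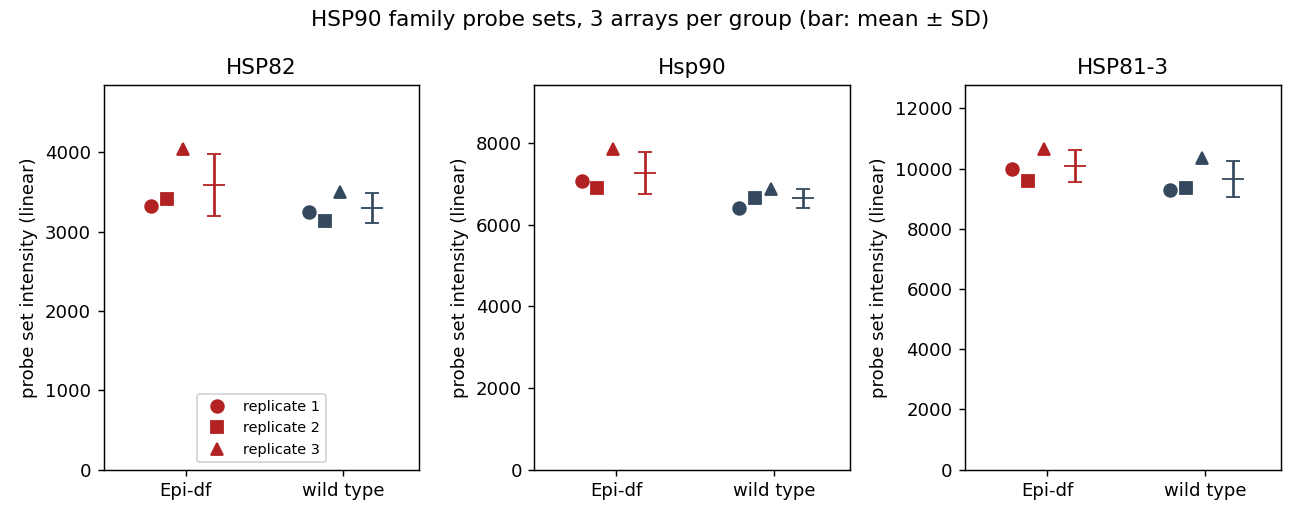
Probe set intensity (linear, from 0) of HSP82, Hsp90 and HSP81-3 on each array, Epi-df left of wild type, with markers for the replicate number and bars for mean ± SD (n = 3). The groups lie close together in every panel and are separate only for Hsp90; the triangle, replicate 3, is the highest point of each group.

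The members shared a pattern across arrays. All 3 of them were highest in Epi-df replicate 3 among the 6 arrays, and in all 3 replicate 3 was also the highest wild type array. Epi-df replicate 3 was the highest array for 18.6% of all tested probe sets, and for 14.0% of the 1646 that were at least as bright as HSP82. Replicate 3 was highest in both groups for 10.4% of all tested probe sets and 13.0% of those bright ones. Relative to the wild type mean, Epi-df replicate 3 stood at 1.22 for HSP82, 1.18 for Hsp90 and 1.10 for HSP81-3, and at 1.15 for the hybridisation controls. The part of the controls' higher level in the members' values was not tested.

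Without Epi-df replicate 3 the log2 changes were 0.03 for HSP82, 0.07 for Hsp90 and 0.02 for HSP81-3 (limma adjusted p = 0.903, 0.695 and 0.939). With each array scaled to the hybridisation controls, a setting chosen after seeing the data, they were 0.07, 0.08 and 0.02. In every fit run, including those with quantile or median scaling, the direction of all 3 members stayed positive and none was called.

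Spread within a group was small but unequal. The coefficient of variation of HSP82 was 10.9% in Epi-df and 5.68% in wild type, that of Hsp90 7.02% in Epi-df and 3.51% in wild type, and that of HSP81-3 5.26% in Epi-df and 6.15% in wild type. The residual SD on the log2 scale was 0.12 for HSP82, 0.08 for Hsp90 and 0.08 for HSP81-3, against a median of 0.12 over all tested probe sets. Of all tested probe sets, 20.3% and 22.0% had a smaller residual SD than Hsp90 and HSP81-3. Most tested probe sets were dimmer, as only 1646 were at least as bright as HSP82. Spread was not compared among probe sets of like brightness.

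Whether the members' changes differed from each other was tested on their within-array log2 differences. The change of HSP82 minus that of Hsp90 was -0.01 ± 0.05 (SE), that of HSP82 minus HSP81-3 was 0.06 ± 0.06, and that of Hsp90 minus HSP81-3 was 0.07 ± 0.03. The exact permutation p-values were 0.9, 0.5 and 0.2 (two-sided, 0.9, 0.75 and 0.6 after Benjamini-Hochberg over 3 pairs), and 3 against 3 arrays cannot give less than 0.1. No difference between the members' changes was detectable with this number of arrays. The _s_at probe set of HSP81-3 may also carry signal of near-identical relatives, so its differences may not be those of HSP81-3 alone.

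**Figure D2:**
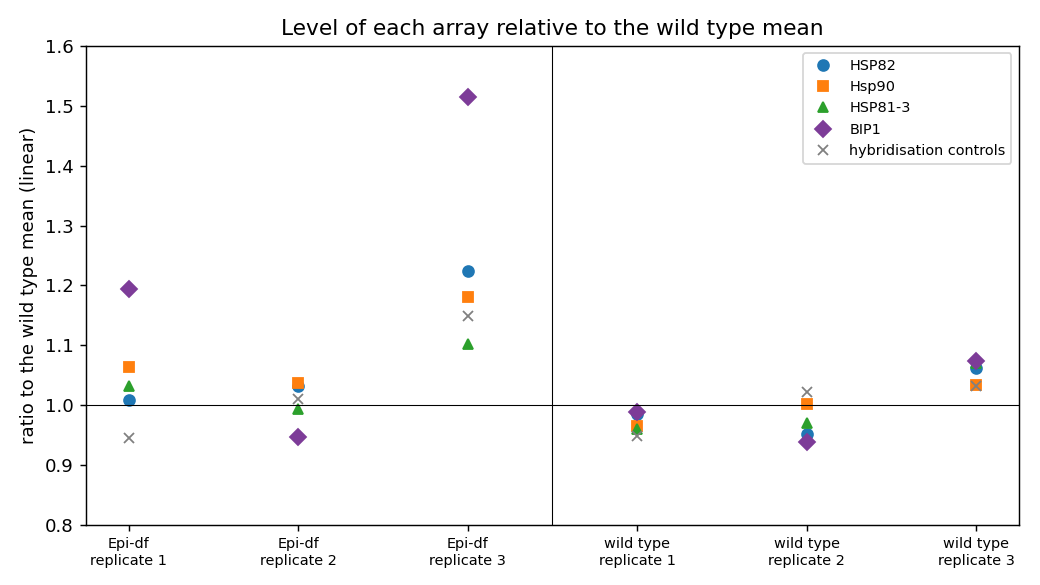
Ratio of each array to the wild type mean (linear) for HSP82, Hsp90, HSP81-3, the endoplasmic reticulum chaperone gene BIP1 and the geometric mean of the hybridisation controls, with the Epi-df arrays left of the wild type arrays. Epi-df replicate 3 is the highest array for each of the 5 series, at 1.22 for HSP82 and 1.15 for the controls.

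Another 7 probe sets are paired with the same genes, 5 of them with 1 gene and the other two with LOC9267802, HSP81-3 and Hsp90 together. They show whether the picture depends on the probe set chosen. Of these, 6 passed the filter on dim probe sets, 5 of them had a higher Epi-df mean on the log2 scale, and none was called, at unadjusted p-values between 0.105 and 0.939.

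The brightest of them, with the suffix _x_at for possible cross-hybridisation, measures LOC9267802, HSP81-3 and Hsp90 jointly. Its intensities were 8655.5, 8287 and 9344 in Epi-df and 8112, 8169 and 8936 in wild type, which overlap (log2 change 0.06 ± 0.07, limma adjusted p = 0.807). The other joint probe set, with the suffix _a_at, had 1020.5, 1165 and 1298 in Epi-df, against 921, 962 and 1151 in wild type, with overlapping groups and a log2 change of 0.20 ± 0.12 (limma adjusted p = 0.558). Both were highest in Epi-df replicate 3, like the members.

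The annotation pairs 4 further probe sets with HSP81-3 alone. An _x_at one, with possible cross-hybridisation, had 3673, 3573 and 3768 in Epi-df and 3413, 3242 and 3616 in wild type (log2 change 0.10 ± 0.07). An _a_at probe set, drawn from the same deposited sequence as the _s_at one above, gave 1241, 1097 and 1302 in Epi-df and 1248, 1102 and 1262 in wild type (log2 change 0.01 ± 0.10). A dim probe set had means of 155 ± 26.1 in Epi-df and 129 ± 9.91 in wild type (SD, n = 3 each; log2 change 0.23 ± 0.13). The remaining HSP81-3 probe set was below the filter at 42.9 ± 6.18 in Epi-df and 42.5 ± 2.87 in wild type and was not tested. The groups of all 4 overlapped.

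The second HSP82 probe set was dim and variable at 151, 91.2 and 155 in Epi-df, against 125, 122 and 146 in wild type. Its log2 change was -0.01 ± 0.18, with an interval from -0.44 to 0.41 that is wider than that of the member probe set. Hsp90 has no other probe set of its own in the annotation.

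Genes of the folding cycle around HSP90 that could be named were looked at next. The gene table named 2 co-chaperone genes, SGT1 and RAR1, and neither was called. SGT1, which links HSP90 to plant immune receptors, had 3458, 3827 and 4003 in Epi-df and 3739, 3397 and 3723 in wild type (log2 change 0.05 ± 0.08). RAR1, which works with SGT1 in disease resistance, had means of 1698 ± 115 in Epi-df and 1639 ± 50.4 in wild type (SD, n = 3 each; log2 change 0.05 ± 0.08). Groups overlapped for both genes.

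HSP70 genes were represented by BIP1 and BIP4, the endoplasmic reticulum type of HSP70, with 0 of 2 called and 1 of 2 higher. No cytosolic HSP70 gene could be named here, so that type of HSP70 was not followed. BIP1 intensities were 5052, 4005 and 6409 in Epi-df and 4182, 3968 and 4543 in wild type. The Epi-df arrays spread widely, with replicate 3 the highest and replicate 2 within the wild type range (log2 change 0.26 ± 0.16, limma adjusted p = 0.551). Leaving out Epi-df replicate 3 gave a change of 0.09, and leaving out its replicate 2 one of 0.43. BIP4 was dim and had a log2 change of -0.01 ± 0.10.

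Among HSP40 genes, whose J-domain proteins deliver clients to HSP70, 5 of 5 tested members were higher and 0 were called. The median log2 change was 0.04, against 0.01 over all tested probe sets. Leaving out Epi-df replicate 3 or 2 gave medians of 0.0066 and 0.082, leaving out replicate 1 or 3 of wild type gave 0.016 and 0.066, and scaling to the hybridisation controls gave -0.0024. DJA6 averaged 7348 ± 442 in Epi-df and 7299.6 ± 325 in wild type (SD, n = 3 each). DJB6, also named ERDJ3B and thus of the endoplasmic reticulum, had 1123, 843 and 1813 in Epi-df and 1109.9, 1056 and 1247 in wild type. DJC79 and DJC43 had log2 changes of 0.02 ± 0.08 and 0.04 ± 0.08. DJC27, the dimmest of the 5 and named after its value was seen, had the largest, 0.39 ± 0.17 (limma adjusted p = 0.363). Its groups overlapped.

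HSP100 genes code for disaggregases that pull proteins out of aggregates. The groups of all 3 did not overlap, with Epi-df higher, as for 9.82% of all tested probe sets. Of the 3, 0 were called, against 0.614% of all tested probe sets. One of them, CLPB-M, passed the filter on dim probe sets only through its Epi-df arrays, so nothing is read from the count. CLPB1, also named hsp101, had 309, 286 and 272 in Epi-df and 175, 221 and 197 in wild type, which differ by 0.52 ± 0.11 on the log2 scale and did not pass (limma adjusted p = 0.0636). CLPB-C, the chloroplast form by its name, averaged 1706 ± 56.6 in Epi-df and 1507 ± 118 in wild type (SD, n = 3 each; log2 change 0.18 ± 0.08, limma adjusted p = 0.387). CLPB-M, the mitochondrial form by its name, averaged 92.6 ± 4.27 in Epi-df and 74.4 ± 2.83 in wild type, with wild type below the filter level of 81.1 (log2 change 0.26 ± 0.07, limma adjusted p = 0.115).

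**Figure D3:**
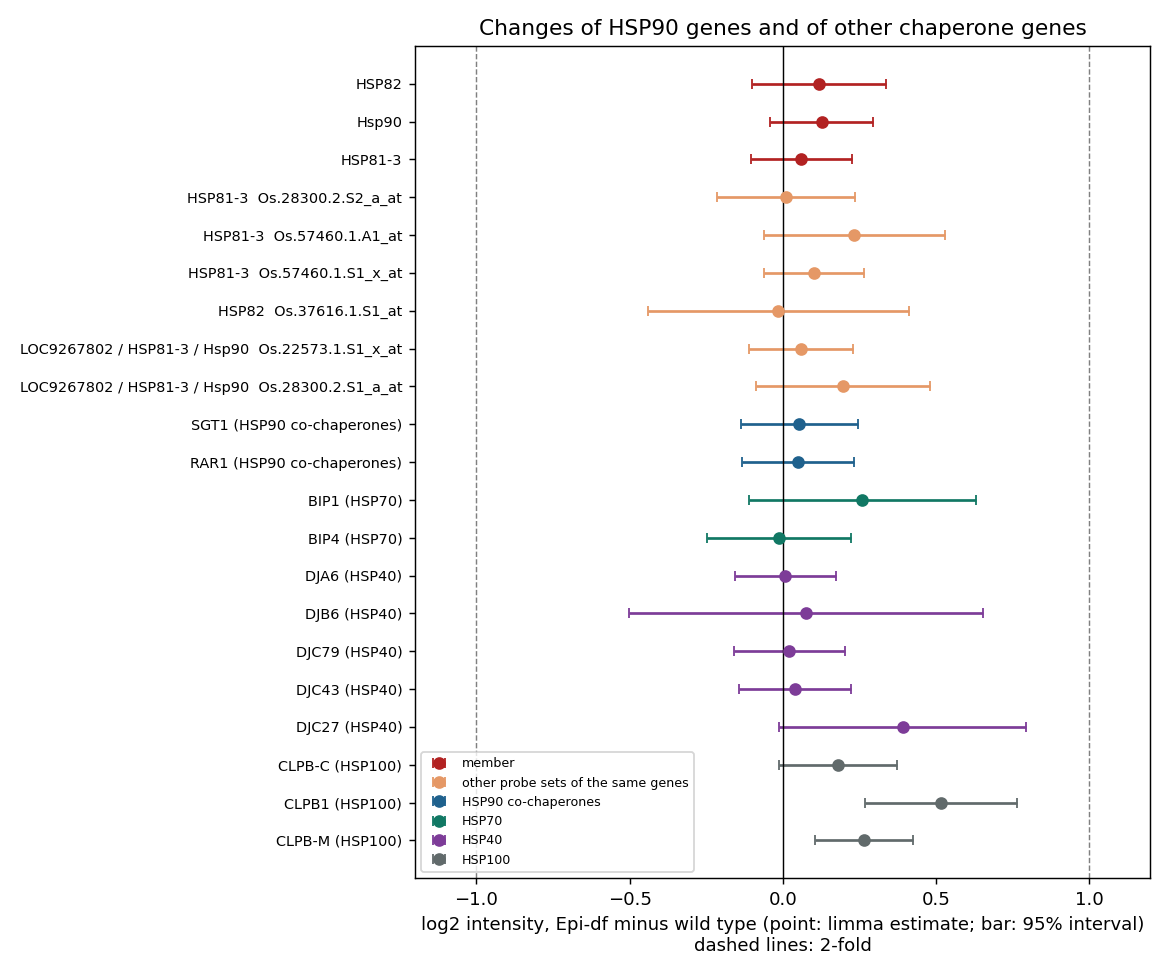
Log2 change (Epi-df minus wild type, limma estimate with 95% interval) of the 3 members, the 6 tested other probe sets of the same genes, and co-chaperone, HSP70, HSP40 and HSP100 genes, with dashed lines at 2-fold. The members' intervals include 0 and end well inside 2-fold. That of CLPB1 lies above 0, but CLPB1 did not pass the adjusted test. Nothing is read from the interval of CLPB-M, which passed the filter on dim probe sets only through its Epi-df arrays and did not pass the adjusted test either.

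Heat shock factors, the activators of chaperone genes, were split: 9 of 19 tested genes were higher, 10 were lower and 0 were called, with a median log2 change of -0.01 that lay between -0.0740 and 0.0163 without 1 array. HSFA1, a master regulator of the heat response in tomato, had 962, 871 and 946 in Epi-df and 994, 1014 and 1013 in wild type. Its groups did not overlap, with Epi-df lower as for 9.79% of all tested probe sets, and the log2 change of -0.12 ± 0.08 did not pass (limma adjusted p = 0.570). The brightest were HSFA2D at 0.08 ± 0.09, HSFC1B at -0.21 ± 0.11 and HSFA2C at -0.18 ± 0.37. HSFA2C ranged from 835 in Epi-df replicate 2 to 2699 in Epi-df replicate 3, while its wild type arrays had 1618, 1983 and 1594.

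HSFA2B, named after its value was seen, was the 1 heat shock factor gene with an adjusted p under 0.05, a level that 1.79% of all tested probe sets reached at any fold. HSFA2B read 218, 213 and 227 in Epi-df, against 138, 149 and 130.2 in wild type (log2 change 0.60 ± 0.08, limma adjusted p = 0.0176), which is below the 2-fold threshold. Without wild type replicate 1, 2 or 3 its limma adjusted p was 0.0937, 0.0637 and 0.0523, and over all alternatives it lay between 0.0126 and 0.0937. The changes furthest below 0, also named after their values were seen, were those of HSFA3 and HSFA9. HSFA3 had 515, 429 and 256 in Epi-df and 856, 619 and 458 in wild type, with overlapping groups (log2 change -0.68 ± 0.29, limma adjusted p = 0.346). HSFA9 had 483, 509 and 465 in Epi-df, against 964, 667 and 575 in wild type (log2 change -0.55 ± 0.18, limma adjusted p = 0.194). Every Epi-df array of HSFA9 was lower, as for 9.79% of all tested probe sets.

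Small heat shock protein genes, which hold unfolded proteins until other chaperones refold them, had 8 higher, 6 lower and 0 called of 14, with a median log2 change of 0.06. At an unadjusted p under 0.05 stood 7 of 14, against 14.4% of all tested probe sets, and the groups did not overlap for 3 with Epi-df higher and 3 with Epi-df lower, against the 9.82% and 9.79% given above. HSP18.8, read by an _x_at probe set with possible cross-hybridisation, averaged 7118 ± 153 in Epi-df and 8902 ± 283 in wild type (SD, n = 3 each). Its log2 change of -0.32 ± 0.06 had an adjusted p under 0.05 (limma adjusted p = 0.0433) at less than 2-fold. That p was 0.0651 to 0.175 without 1 array, 0.190 with scaling to the hybridisation controls, 0.0559 with median scaling and 0.0803 without the intensity trend. HSP17.9B averaged 5431 ± 430.0 in Epi-df and 7057 ± 219 in wild type (SD, n = 3 each; log2 change -0.38 ± 0.08, limma adjusted p = 0.0598). HSP18.0 and HSP17.7, the next in brightness, had log2 changes of 0.18 ± 0.07 and 0.06 ± 0.10.

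Named genes with the array profile most like each member were found by the root mean square difference of centred log2 profiles over the 6 arrays, among 2689 probe sets. HAL3, cdsp32 and C3H11 came closest to HSP82, at 0.033, 0.040 and 0.044. WNK2, UBC5b and cdsp32 were nearest to Hsp90, at 0.034, 0.039 and 0.039. For HSP81-3 they were COQ5, MUB4 and SRP19, at 0.024, 0.025 and 0.027. Between the members themselves the difference was 0.052 for HSP82 and Hsp90, 0.064 for HSP82 and HSP81-3, and 0.047 for Hsp90 and HSP81-3.

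**Figure D4:**
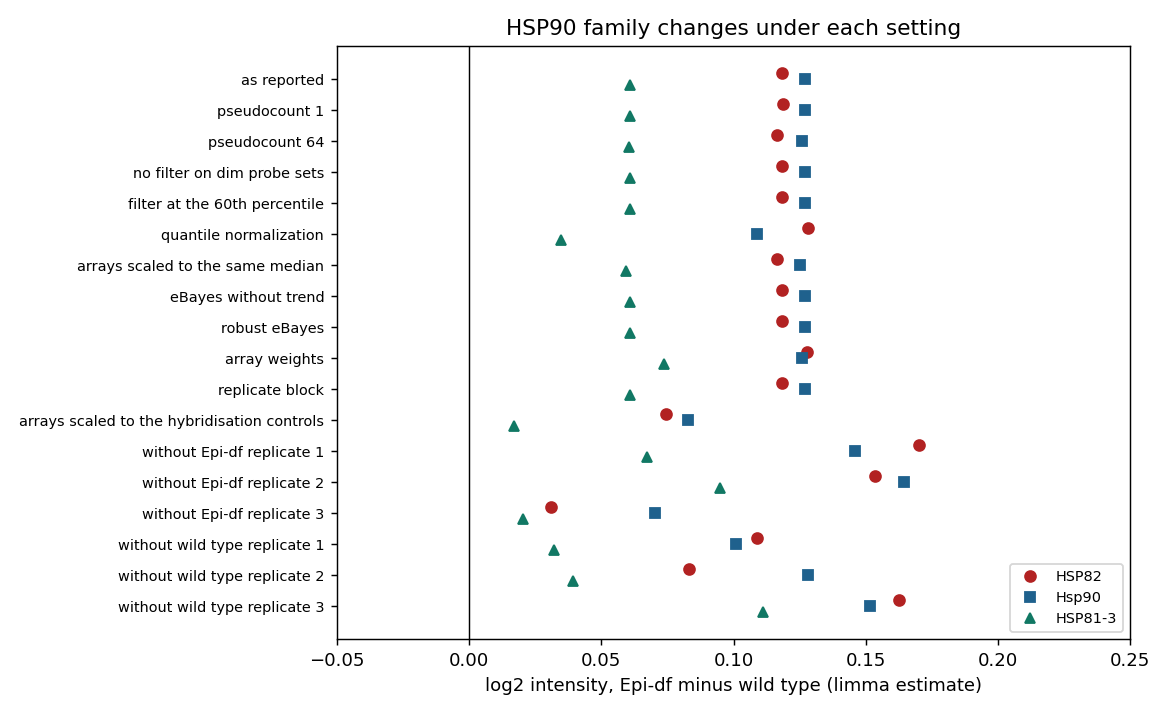
Log2 change (Epi-df minus wild type) of HSP82, Hsp90 and HSP81-3 as reported and under each other setting, 1 row per setting. Every point lies above 0 and at or under 0.17, and the values for HSP82 and HSP81-3 are close to 0 without Epi-df replicate 3.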

How the data were processed

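The authors deposited 1 linear intensity per probe set and array. The submitters' processing notes name MAS5; its version and scaling target are not given in the sources used here. Groups and replicate numbers came from the sample titles. Log2(intensity + 16) was fitted in R 4.3.3 by limma 3.58.1, without a replicate block, and tested two-sided by eBayes with a trend on intensity, over the 34355 non-control probe sets whose mean over 6 arrays reached the 40th percentile (81.1). Calls needed a 2-fold change and a p below 0.05 after Benjamini-Hochberg adjustment, following the series' design. No 2 arrays were identical. The number of arrays limits the precision.

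Names came from GEO's platform annotation, updated through RefSeq genes (ASM3414082v1): 22436 probe sets had 1 gene, 95 several and 34727 none in this table, so the last are unnamed here, not without a gene. Partner lists were matched by symbol; loci could not be matched, no HSP60 gene was found, and names of BRI1-interacting proteins and an SBP gene were removed from the patterns. A gene was represented by its brightest probe set. Named were the members, their genes' other probe sets, of each list called genes and up to 4 of the brightest, all of HSP100, and 3 profiles like each member. DJC27, HSFA2B, HSFA3 and HSFA9 were chosen after their values were seen. Members and lists were chosen with earlier results of these data known. Markers CAB1R, RCc3, OSC6, RA8, UDT1 and GLUB1 had no named probe set here. Fits were tested on simulated data. Alternatives were other pseudocounts, filters, scalings, spread models, array weights, a replicate block and leaving out each array.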

Additional observations from a re-analysis of the deposited data

How the results depend on the processing

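HSP82, Hsp90 and HSP81-3 kept their direction and stayed uncalled in all 17 alternatives each. Leaving out 1 array gave log2 changes of 0.03 to 0.17, 0.07 to 0.16 and 0.02 to 0.11, and over all alternatives the limma adjusted p lay between 0.490 and 0.9999 for HSP82, 0.397 and 0.995 for Hsp90, and 0.613 and 0.9999 for HSP81-3. The count of 211 called probe sets was 614 with no fold threshold, 494 at 1.5-fold and 348 with scaling to the hybridisation controls, and 111 to 260 without 1 array (111 without wild type replicate 1, 117 without wild type replicate 2). With the replicate block it was 324, and the block changed no member's call. Deviations of same-numbered arrays correlated at 0.13, 0.33 and -0.06, and not every array correlated best with its own number, so the numbers were not taken as pairs. The difference HSP82 minus Hsp90 was 0.0195 with quantile normalization and -0.0449 to 0.0242 without 1 array. HSP82 minus HSP81-3 was 0.0105 without Epi-df replicate 3, 0.103 without Epi-df replicate 1 and 0.0937 with quantile normalization, and Hsp90 minus HSP81-3 was 0.0404 without wild type replicate 3. The HSP100 median of 0.26 is the value of CLPB-M, whose wild type mean is below the filter. It was 0.18 with a pseudocount of 64, 0.35 with the filter at the 60th percentile, which leaves 2 genes, and 0.24 to 0.34 without 1 array, where the 0.34, without Epi-df replicate 2, is also over 2 genes. The heat shock factor median was -0.12 with that filter, which leaves 13 genes. The small heat shock protein median was 0.0207 with scaling to the controls and 0.0526 to 0.135 without 1 array (0.135 without Epi-df replicate 3, 0.114 without Epi-df replicate 2). The second HSP82 probe set was at 0.0336 with array weights and -0.131 to 0.204 without 1 array, and the _a_at probe set of HSP81-3 at -0.0334 with scaling to the controls and -0.0517 to 0.0801 without 1 array. Apart from the smaller gene sets named here, the cause was not tested.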
